A study of Mus musculus with 6 samples.

Results

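The 41 genes described here encode the Slit ligands and their Robo receptors (7 genes), the netrins, netrin-Gs and netrin receptors (12 genes), the ephrins (8 genes) and the Eph receptors (14 genes). They were chosen by gene symbol alone, among 24062 genes measured in sorted adult mouse muscle cells. Of these 41, 33 reached the level needed for a test, and 13 are also among the 4939 genes of a second table that covers a second mouse line.

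Cells of hind-limb skeletal muscle of adult C57BL/6 mice were sorted on tdTomato, a red fluorescent protein that tamoxifen switches on permanently in cells making the CreERT2 recombinase, and their total RNA was sequenced. In the genotype Tw2-CreERT2/+;R26-tdTO+ the recombinase is driven by Twist2, a transcription factor gene of mesenchymal cells, and the red cells (Tw2pos, n = 2) and the cells without red signal (Tw2neg, n = 2) were both collected. In the genotype Pax7-CreERT2/+;R26-tdTO+ it is driven by Pax7, the gene of satellite cells, from which muscle regenerates, and the red cells (Pax7pos, n = 1) and the cells without red signal (Pax7neg, n = 1) were collected in the same way. All 4 groups carry a Cre allele and the reporter, and all mice had 3 tamoxifen doses on alternate days, 10 days ahead of the harvest. The label thus marks descendants as well as cells making Twist2 or Pax7 at harvest, and the unlabelled fractions are mixtures of whatever else the digest held. Whether the 2 replicates of a group were taken from different animals is not stated in the labels, and the p-values therefore cover only the spread of these libraries, which may be technical.

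Guidance proteins were first studied in growing axons, and they also position and separate cells in vessels, muscle and connective tissue. Secreted Slits bind Robo receptors and usually repel the cell that carries them. Netrins attract through Dcc or neogenin and repel through Unc5 receptors. Ephrins sit on the cell surface, A types through a lipid anchor and B types through a membrane-spanning stretch, and signal at contact in both directions with the Eph receptor tyrosine kinases.

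The depth of the Twist2 line was 10902318 and 12425426 reads for the Tw2pos libraries, against 13205751 and 13005707 for Tw2neg. The label check gave Twist2 at 99.4 and 222 normalised counts in Tw2pos against 22.0 and 23.2 in Tw2neg, and Pax7 at 303 CPM, the count scaled to a common library size, in Pax7pos against 0.402 CPM in Pax7neg. Summed over 9 markers of fibro-adipogenic progenitors, such as Dcn and Col3a1, Tw2pos held 517036 and 560448 normalised counts and Tw2neg 151794 and 91789. Over 6 tendon markers, such as Thbs4 and Fmod, Tw2pos held 387046 and 343299 and Tw2neg 69727 and 30351, so that the sums of both lists moved with the genes higher in Tw2pos. Summed over 9 endothelial markers, such as Cdh5 and Pecam1, Tw2pos held 11909 and 10042 and Tw2neg 43267 and 16083. Of this list, Ly6c1, Tek and Vwf overlapped between the groups. Neutrophil, lymphocyte and macrophage markers were also higher in both Tw2neg libraries than in either Tw2pos library. The libraries are bulk samples, so fewer cells of a type and less RNA per cell cannot be told apart. The part that the makeup of the fractions has in the results below was not tested.

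The promoters of 4 guidance genes are printed because the label is driven by Twist2, a basic helix-loop-helix factor, and factors of this class bind E-boxes, the letters CANNTG. These 4 were chosen after their values were seen: 2 of the genes rose in Tw2pos (Ephb2 and Epha3) and 2 fell (Efnb2 and Epha2), and none of these windows runs into an annotated exon. Each is the 250 bases before the start of the gene in RefSeq, build GRCm38.p6, written from 5′ to 3′ on the strand of the gene, with any CANNTG in capitals. Ephb2 lies at chr4:136836013-136836262 (minus strand), Epha3 at chr16:63864176-63864425 (minus strand), Efnb2 at chr8:8661243-8661492 (minus strand) and Epha2 at chr4:141300971-141301220 (plus strand).
Ephb2: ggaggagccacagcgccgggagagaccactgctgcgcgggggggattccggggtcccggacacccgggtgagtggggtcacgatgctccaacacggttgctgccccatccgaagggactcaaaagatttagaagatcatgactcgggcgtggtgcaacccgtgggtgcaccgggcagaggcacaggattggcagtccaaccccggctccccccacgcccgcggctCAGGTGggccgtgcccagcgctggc
Epha3: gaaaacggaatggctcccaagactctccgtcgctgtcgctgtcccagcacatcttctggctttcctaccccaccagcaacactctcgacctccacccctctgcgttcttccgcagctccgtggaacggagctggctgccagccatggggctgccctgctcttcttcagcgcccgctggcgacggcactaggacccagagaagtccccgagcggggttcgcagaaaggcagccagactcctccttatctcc
Efnb2: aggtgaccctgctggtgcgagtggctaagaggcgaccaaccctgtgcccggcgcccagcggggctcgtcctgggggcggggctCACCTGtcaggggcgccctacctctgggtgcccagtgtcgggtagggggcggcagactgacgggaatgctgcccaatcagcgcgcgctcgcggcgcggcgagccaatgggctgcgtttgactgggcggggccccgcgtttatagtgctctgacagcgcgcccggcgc
Epha2: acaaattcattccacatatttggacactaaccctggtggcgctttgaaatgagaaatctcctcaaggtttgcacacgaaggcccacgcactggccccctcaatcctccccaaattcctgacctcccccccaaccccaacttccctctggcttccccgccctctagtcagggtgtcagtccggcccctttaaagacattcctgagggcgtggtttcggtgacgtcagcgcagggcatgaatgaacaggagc
One gene of each direction thus held 1 match and one of each direction held 0. Over the 36 of 41 guidance genes matched to RefSeq, 18 of 41 windows held CANNTG, against 66.2% of 32851 windows of all genes. The letters CANNTG read the same on both strands. Among guidance genes that rose in Tw2pos it was in 6 of 15 windows, and among those that fell in 2 of 4. The 15 windows belong to 12 genes and are not independent. Robo2 has several windows, each with a match, the windows of Epha7 overlap, and Ntn1 has none. The variant CATATG was in 0 of 41 windows, against 3.46% of all. The guidance windows had a median of 64.8% G and C, against 52.4% in all windows. A match describes the letters and is not evidence of binding.

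The first comparison, of labelled with unlabelled cells of the Twist2 line, asks which guidance genes mark the Twist2 lineage. Tw2pos cells held more RNA of both measured Slit ligands, of 3 netrins, of the netrin receptor neogenin and of 4 Eph receptors. They held less of the vascular receptor Robo4, the netrin receptor Unc5c, the Eph receptor Epha2 and ephrin-B2. Of the 33 genes tested, 13 were higher in Tw2pos, 4 were lower and 16 did not pass (limma on log2 of the normalised count plus 1, Benjamini-Hochberg adjusted p under 0.05 over 14155 genes). Over all genes tested, 18.7% were higher and 20.0% were lower, 38.6% in all. The median log2 fold change was 0.88 over the guidance genes and −0.04 over all genes tested. The libraries of the groups did not overlap for 25 of the guidance genes, 18 of them higher in Tw2pos and 7 lower, against 37.1% and 39.2% of all genes.

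**Figure D1:**
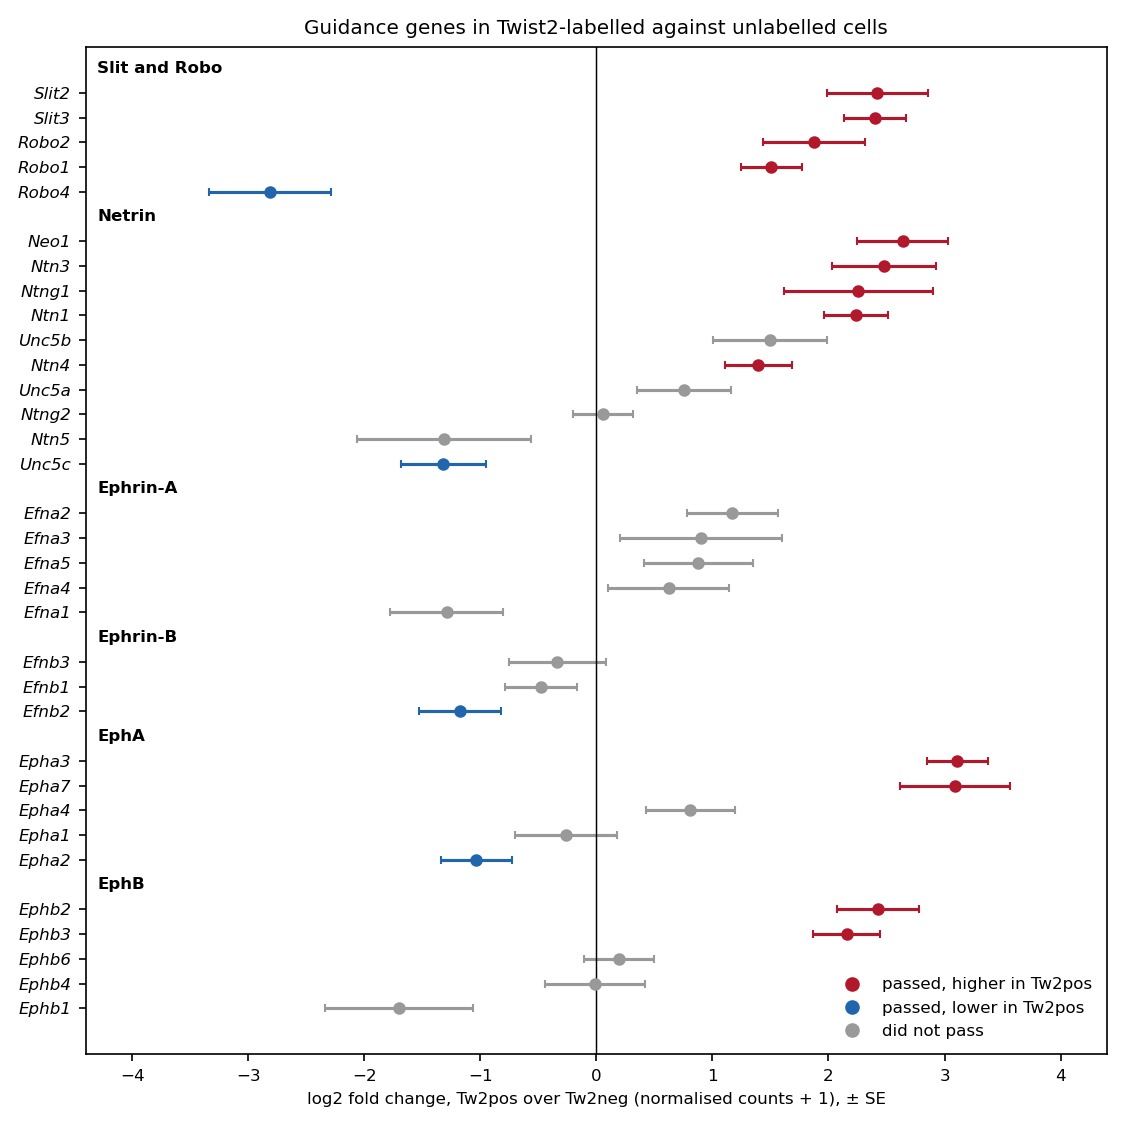
The log2 fold change of Tw2pos over Tw2neg (horizontal axis, normalised counts plus 1) is drawn with its standard error for the 33 guidance genes tested, grouped by family, with red for genes that passed as higher, blue for lower and grey for those that did not pass. The highest value is that of Epha3 at 3.11 and the lowest that of Robo4 at −2.81, and the Eph receptors and netrins reach further to the right than the ephrins.

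Of the Slit ligands, both that could be tested rose. Slit3 had 6984 and 8166 normalised counts in Tw2pos, against 1775 and 1147 in Tw2neg. It rose by 2.40 on the log2 scale (SE 0.27, limma adjusted p = 0.00217), with both Tw2pos libraries far above both Tw2neg libraries. The gene spans chr11:35121224-35708507 on the plus strand (GRCm38, GENCODE M21). Per kilobase of exon it was the most abundant of the 41 genes in Tw2pos, at 1249 normalised counts, against 241 in Tw2neg. Slit2, a closely related ligand, had 122 and 275 in Tw2pos, against 35.0 and 32.0 in Tw2neg. Its libraries did not overlap either, although those of Tw2pos lay far apart, and its log2 fold change was 2.42 (SE 0.43, limma adjusted p = 0.00874). Without Tw2pos replicate 2 the adjusted p of Slit2 was 0.0557, with a range of 1.4e-06 to 0.0557 over 14 alternatives. Slit1 had 1 to 3 reads in each library and was not tested.

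The Robo receptors split by type. Robo1, a widely expressed Slit receptor, had 477 and 523 normalised counts in Tw2pos, against 218 and 141 in Tw2neg (log2 fold change 1.51, SE 0.26, limma adjusted p = 0.00828). Robo2, its relative, had 120 and 166 in Tw2pos, against 55.3 and 25.6 in Tw2neg (1.88, SE 0.44, adjusted p = 0.0205). Both genes were higher in each Tw2pos library than in either Tw2neg library. Without Tw2pos replicate 2 both calls ended, at adjusted p = 0.054 for Robo1 (range over alternatives 3.36e-05 to 0.054) and 0.115 for Robo2 (0.000325 to 0.115). Robo4, the Robo of endothelium, had 292 and 148 in Tw2pos, against 2405 and 896 in Tw2neg. It lies at chr9:37401897-37415115 on the plus strand. It fell by 2.81 on the log2 scale (SE 0.53, limma adjusted p = 0.0102), with no overlap and with Tw2neg replicate 1 far above replicate 2. The log2 fold change of Robo4 was −2.10 without Tw2neg replicate 1 and −3.52 without replicate 2, and it passed in both fits. The sum of the endothelial markers moved the same way, with 43267 and 16083 normalised counts in those 2 libraries. Not every marker did: Ly6c1 had 3176 and 4091 in Tw2pos, against 3846 and 2201 in Tw2neg. Tek (1052 and 929 against 2177 and 931) and Vwf (1884 and 1084 against 5384 and 1637) also overlapped between the groups. The part of endothelial cells in the fall of Robo4 was not tested. Robo3 had no reads in 3 libraries and 4 reads in Tw2neg replicate 2, and was not tested.

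Of the secreted netrins, 3 of 4 tested rose. Netrin 1 (Ntn1), the best-studied netrin, had 6524 and 6864 normalised counts in Tw2pos, against 1809 and 1107 in Tw2neg (log2 fold change 2.24, SE 0.28, limma adjusted p = 0.00286). Per kilobase of exon it stood next to Slit3, at 1066 normalised counts in Tw2pos and 232 in Tw2neg. Ntn4, a netrin of basement membranes, had 761 and 737 in Tw2pos, against 375 and 215 in Tw2neg (1.40, SE 0.29, adjusted p = 0.0141). The groups overlapped for neither gene, and the Tw2pos libraries lay close together. Leaving out either Tw2pos library ended the call for Ntn4, with an adjusted p of 0.0509 or 0.0523 (range over alternatives 3.23e-05 to 0.0523). Ntn3 had 140 and 124 in Tw2pos, against 34.2 and 15.2 in Tw2neg (2.48, SE 0.44, adjusted p = 0.00879). Exons of Ntn3 overlap those of Tbc1d24 on the same strand and of BC028777 on the other, and no strand setting of the counting is stated, so its counts are uncertain. Ntn5 had 22.9 and 8.44 in Tw2pos, against 68.3 and 19.2 in Tw2neg, which overlap, and did not pass (adjusted p = 0.211). Its exons overlap Sec1 on the opposite strand, so its counts are uncertain too.

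Of the netrin-Gs, which are anchored to the membrane and bind other receptors than the secreted netrins do, Ntng1 rose and Ntng2 did not pass. Ntng1 had 114 and 130 normalised counts in Tw2pos, against 49.6 and 12.0 in Tw2neg (log2 fold change 2.26, SE 0.64, limma adjusted p = 0.0371). The groups did not overlap, but the Tw2neg libraries differed widely and the call did not hold in 4 of 14 alternatives, with adjusted p from 0.000157 to 0.104. Its log2 fold change was 3.24 without Tw2neg replicate 1 and 1.28 without replicate 2. Ntng2 had 209 and 211 in Tw2pos, against 242 and 168 in Tw2neg (0.06, adjusted p = 0.873), and the Tw2pos values lay between those of Tw2neg. Exons of Ntng2 overlap 6530402F18Rik on the same strand, so its counts are uncertain.

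The netrin receptors did not move as one. Neogenin (Neo1), which also binds repulsive guidance molecules, had 3962 and 3587 normalised counts in Tw2pos, against 921 and 395 in Tw2neg. It rose by 2.64 on the log2 scale (SE 0.39, limma adjusted p = 0.00481), with both Tw2pos libraries far above the others, by 3.25 without Tw2neg replicate 1 and by 2.03 without replicate 2. Unc5b, a netrin receptor that is also found in vessels, had 1112 and 1323 in Tw2pos, against 741 and 248 in Tw2neg (1.50, SE 0.49, adjusted p = 0.0549). Every Tw2pos value of Unc5b was above both Tw2neg values, as was so for 37.1% of all genes tested. Unc5b missed the threshold here but passed in 5 of 15 alternatives (adjusted p 9.41e-05 to 0.134). Its log2 fold change was 2.29 without Tw2neg replicate 1 and 0.71 without replicate 2. Unc5c had 17.8 and 16.9 in Tw2pos, against 46.4 and 43.2 in Tw2neg, and fell by 1.32 (SE 0.37, adjusted p = 0.0348). This call held in 7 of 13 alternatives, with adjusted p from 0.0114 to 0.195, and an exon of Unc5c overlaps Gm15688 on the opposite strand. Unc5a had 28.8 to 77.2 in the 4 libraries and did not pass, and its exons overlap Hk3 on the opposite strand. Dcc, the classical attractive receptor, had 0.800 to 6.37 normalised counts and was not tested, and Unc5d was represented by 7 and 2 reads in Tw2neg and by none in Tw2pos.

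No ephrin passed as higher in Tw2pos and 1 of 8 passed as lower, against 18.7% higher and 20.0% lower of all genes tested. By limma at an unadjusted p under 0.05, 1 ephrin was higher and 2 were lower, and at adjusted p under 0.05 edgeR called 0 higher and 1 lower, and DESeq2 0 higher and 2 lower. The ephrin that fell was ephrin-B2 (Efnb2), a marker of arterial endothelium, with 301 and 317 normalised counts in Tw2pos, against 1008 and 484 in Tw2neg (log2 fold change −1.17, SE 0.35, limma adjusted p = 0.0431). The groups did not overlap, the Tw2neg libraries differed by more than the Tw2pos libraries, and the call held in 10 of 15 alternatives (adjusted p 0.00048 to 0.117). Efna1, an ephrin-A found in endothelium, had 150 and 119 in Tw2pos, against 551 and 196 in Tw2neg (−1.29, SE 0.49, adjusted p = 0.0817). It passed as lower in 4 of 15 alternatives (adjusted p 0.000841 to 0.228), with a log2 fold change of −0.54 without Tw2neg replicate 1 and −2.03 without replicate 2. Efnb1 had 199 and 212 in Tw2pos, against 380 and 215 in Tw2neg (−0.47, adjusted p = 0.266). Efnb1 passed in 2 of 14 alternatives (adjusted p 0.0194 to 0.786). Neither gene passed in the fit of all 4 libraries. Both Tw2pos values lay below both Tw2neg values for each gene, as was so for 39.2% of all genes tested. For Efnb1 the nearest values of the groups were 212 and 215. Of the other 5 ephrins, Efna2, Efna3, Efna4 and Efna5 had log2 fold changes of 0.62 to 1.17 and Efnb3 of −0.34, each at a level below 100 normalised counts in all 4 libraries. Efna2 had 39.5 and 33.8 in Tw2pos, against 17.1 and 14.4 in Tw2neg (1.17, SE 0.39, limma adjusted p = 0.0595). It passed as higher in 4 of 13 alternatives, among them quantile normalization, but not in edgeR or DESeq2. Exons of Efna3 and Efna4 overlap other genes on the opposite strand, so their counts are uncertain.

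The Eph receptors held the genes with the highest fold changes of the whole set. Epha3 had 782 and 854 normalised counts in Tw2pos, against 115 and 76.0 in Tw2neg (log2 fold change 3.11, SE 0.26, limma adjusted p = 0.00092). Epha7 had 190 and 148 in Tw2pos, against 29.3 and 12.0 in Tw2neg (3.09, SE 0.47, adjusted p = 0.00534). Epha3 lies at chr16:63543534-63864175 on the minus strand and Epha7 at chr4:28813131-28967499 on the plus strand. The log2 fold change of Epha7 was 3.70 without Tw2neg replicate 1 and 2.48 without replicate 2. Both are receptors of ephrin-A ligands and were several times higher in each Tw2pos library than in either Tw2neg library. Ephb2, a receptor of ephrin-B ligands, had 575 and 578 in Tw2pos, against 151 and 74.4 in Tw2neg (2.43, SE 0.35, adjusted p = 0.00457). Ephb3, its close relative, had 556 and 589 in Tw2pos, against 165 and 98.3 in Tw2neg (2.16, SE 0.29, adjusted p = 0.00361). The Tw2pos libraries nearly coincided for both genes, and neither overlapped with Tw2neg. Slit3, Robo4, Ntn1, Ntn3, Neo1, Epha3, Epha7, Ephb2 and Ephb3 passed in every alternative in which they were tested.

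Other Eph receptors fell or did not pass. Epha2, a receptor of epithelia and vessels, had 468 and 375 normalised counts in Tw2pos, against 1148 and 642 in Tw2neg (log2 fold change −1.03, SE 0.31, limma adjusted p = 0.0426), with no overlap. Its call held in 9 of 15 alternatives, with adjusted p from 0.000583 to 0.19. Epha4 had 537 and 598 in Tw2pos, against 486 and 214 in Tw2neg (0.81, adjusted p = 0.144), where the groups did not overlap but the Tw2neg libraries lay far apart. It passed in 2 of 14 alternatives, the replicate block and without Tw2neg replicate 1 (adjusted p over all 14 from 0.00449 to 0.42), and its log2 fold change was 1.40 without replicate 1 and 0.22 without replicate 2. Ephb4, the venous partner of ephrin-B2, had 644 and 642 in Tw2pos, against 1047 and 400 in Tw2neg (−0.01, adjusted p = 0.987). Its Tw2pos values lay between those of Tw2neg, and the direction turned with the Tw2neg library used: 0.68 without replicate 1 and −0.70 without replicate 2. Ephb6, an Eph without kinase activity, had 166 and 141 in Tw2pos, against 167 and 107 in Tw2neg (0.19, adjusted p = 0.638), which overlap. Ephb1 had 8.92 and 8.44 in Tw2pos, against 54.5 and 16.8 in Tw2neg, and did not pass (−1.70, adjusted p = 0.0807), although it did in 3 of 13 alternatives (0.013 to 0.201). Epha1 did not pass either, at 23.2 to 42.3 in the 4 libraries. Exons of Ephb4 (Zan), Ephb1 (Gm26846) and Epha1 (Zyx) overlap the bracketed gene on the opposite strand, so their counts are uncertain. Epha5, Epha8 and Epha10 had at most 6 reads in a library and Epha6 had no read in any.

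**Figure D2:**
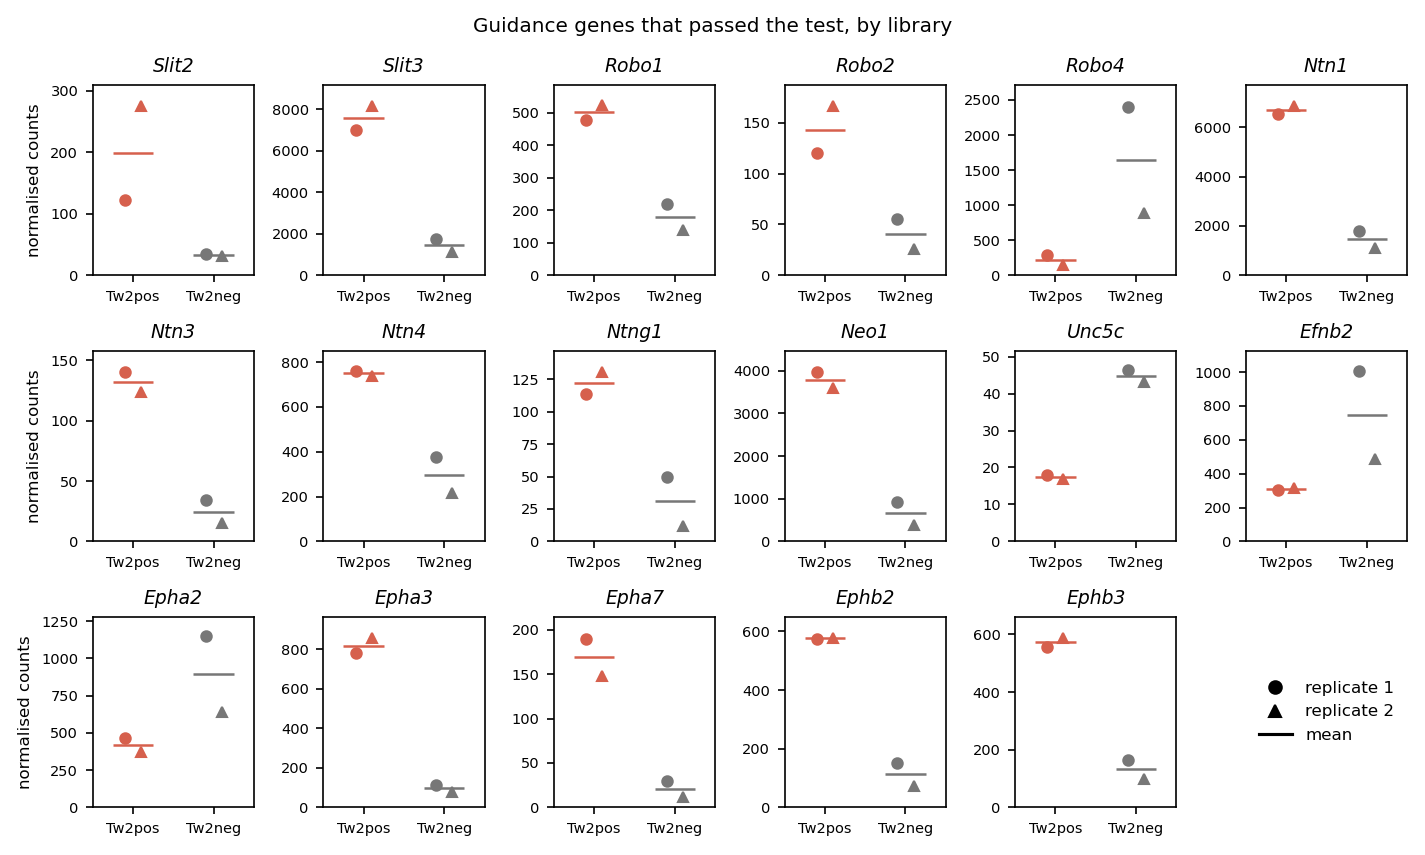
Each panel plots the normalised counts of 1 of the 17 guidance genes that passed, with circles for replicate 1, triangles for replicate 2 and a line for the mean of each group, Tw2pos on the left and Tw2neg on the right. In 13 panels both Tw2pos libraries lie above Tw2neg, and in those of Robo4, Unc5c, Efnb2 and Epha2 both lie below it.

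The order of levels differed between the fractions when counts were set per kilobase of exon. In Tw2pos the leading genes were Slit3 (1249 normalised counts per kilobase), Ntn1 (1066), Neo1 (433), Ntn4 (200) and Unc5b (195). In Tw2neg they were Robo4 (311), Slit3 (241), Ntn1 (232), Efna1 (204) and Epha2 (192), and the ranges of neighbours in this order overlapped between the Tw2neg libraries. In Tw2pos the ranges of Ntn4 and Unc5b overlapped, while those of Slit3, Ntn1, Neo1 and Ntn4 stood apart. Summed by role, secreted netrins came to 1281 and 1319 per kilobase in Tw2pos, against 426 and 245 in Tw2neg. Slit ligands came to 1156 and 1357 in Tw2pos, against 294 and 191 in Tw2neg, while Robo receptors came to 91.0 and 69.5 in Tw2pos, against 470 and 179 in Tw2neg. These sums are led by Ntn1, by Slit3 and, in Tw2neg, by Robo4.

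Within Tw2neg the guidance genes were not evenly spread between the libraries. All 33 genes tested were higher in Tw2neg replicate 1 than in replicate 2, with a median ratio of 1.79, against 49.6% of all genes tested and a median ratio of 0.995. In Tw2pos 17 of the 33 were higher in replicate 1, with a median ratio of 1.003. Marker lists differed between the Tw2neg libraries as well: the sum was 2.99 times as high in replicate 1 for pericytes and smooth muscle, 2.69 times for endothelium, 2.30 times for tendon, 2.04 times for Schwann cells and 1.65 times for fibro-adipogenic progenitors. It was 0.895 times as high for macrophages and 0.427 times for lymphocytes. Of the 7 macrophage markers, however, 6 were higher in replicate 1, and only Ptprc was lower there (6237 against 12121 normalised counts). The part of these differences in the spread of the guidance genes was not tested. The 4 falls described above rest on these libraries. With 1 library left out in turn, the log2 fold change ran from −3.52 to −2.10 for Robo4 and from −1.37 to −1.27 for Unc5c. It ran from −1.70 to −0.65 for Efnb2 and from −1.45 to −0.61 for Epha2. In fits without a Tw2neg library the spread comes from the Tw2pos pair alone, and in those without a Tw2pos library from the Tw2neg pair. The median log2 fold change of the guidance genes was 1.29 without Tw2neg replicate 1 and 0.36 without Tw2neg replicate 2. It was 1.03 without Tw2pos replicate 1 and 0.79 without Tw2pos replicate 2. Over all genes the median was −0.04, −0.02, −0.05 and −0.05 in the same order.

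**Figure D3:**
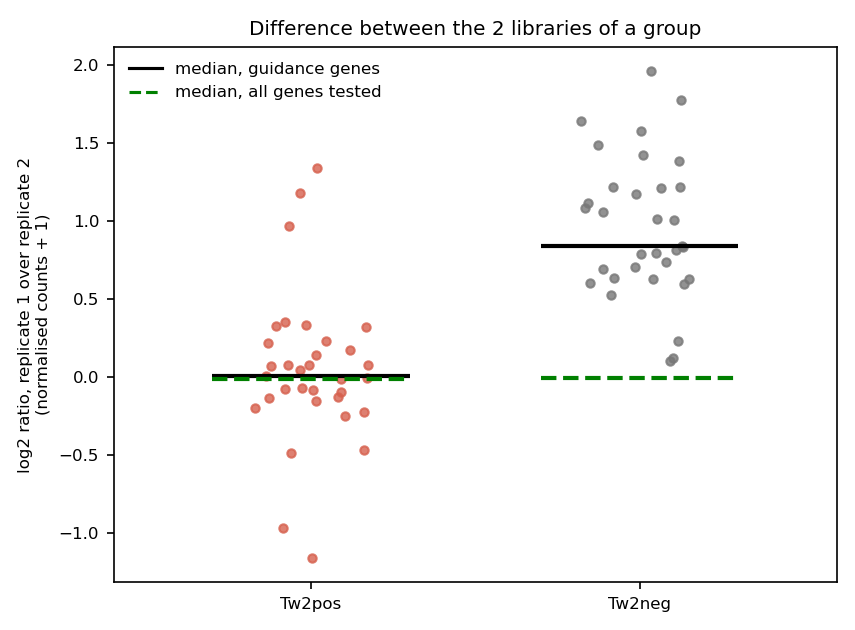
Each point is 1 of the 33 guidance genes tested, placed by the log2 ratio of its normalised count plus 1 in replicate 1 over replicate 2 (vertical axis), for Tw2pos on the left and Tw2neg on the right. The black line is the median of the guidance genes and the dashed green line that of all genes tested: in Tw2neg every point is above 0 and the medians are 0.84 and −0.01.

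The second comparison, which the study's design names, sets the Twist2-labelled cells beside the Pax7-labelled satellite cells. It can be made for 13 guidance genes, those in the CPM table. Each gene there reaches 10 CPM in at least 3 libraries and a deposited fold of 2 in at least 1 comparison, so these 13 were partly selected on differences of the kind described. Tw2pos held far more Slit3 and Ephb2 than Pax7pos, and less Epha2, Ntn4 and Robo1. Of the 13 genes, 6 were higher in Tw2pos than in Pax7pos, 3 were lower and 4 did not pass (limma on log2 of CPM plus 1 in a fit of all 6 libraries, adjusted over 4790 genes), against 33.9% higher and 25.7% lower, 59.6% in all, of the genes tested. The median log2 fold change was 1.51 over the 13 and 0.41 over all genes. The lone Pax7pos library is assumed to vary like the Twist2 libraries, and the comparison shares the Tw2pos libraries with the first. The 9 markers of fibro-adipogenic progenitors summed to 41763 and 45280 CPM in Tw2pos, against 3700 in Pax7pos. Col3a1 alone made up 3225 CPM of the Pax7pos sum, while Dcn had 14124 and 16580 CPM in Tw2pos against 156. Over 7 satellite cell markers the sum was 1132 and 1253 CPM in Tw2pos, against 5580 in Pax7pos. Only Chodl of these 7 was higher in Tw2pos, at 479 and 475 CPM against 354. Pax7 had 12.2 and 7.21 CPM in Tw2pos against 303, and Myod1 had 8.75 and 19.8 against 993. The 6 tendon markers summed to 31264 and 27736 CPM in Tw2pos, against 528 in Pax7pos.

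Among the ligands, Slit3 had 564 and 660 CPM in Tw2pos, against 2.92 CPM (28 reads) in Pax7pos (7.28 on the log2 scale, SE 0.36, limma adjusted p = 2.52e-05). Ntn1 had 527 and 555 CPM in Tw2pos, against 91.3 in Pax7pos (2.55, SE 0.38, adjusted p = 0.0012). Both Tw2pos libraries were far above the Pax7pos library for both ligands. Ntn4 went the other way, with 61.5 and 59.5 CPM in Tw2pos, against 148 in Pax7pos (−1.28, SE 0.39, adjusted p = 0.0231, range over alternatives 0.000526 to 0.127). Ntng2 had 16.9 and 17.1 CPM in Tw2pos, against 5.33 in Pax7pos (1.51, SE 0.41, adjusted p = 0.0148, range 0.000885 to 0.534). Its counts are uncertain, since its exons overlap 6530402F18Rik on the same strand. The ephrins Efna1, at 12.2 and 9.65 CPM in Tw2pos against 16.5 in Pax7pos, and Efnb2, at 24.3 and 25.6 against 27.3, did not pass.

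Among the receptors, Ephb2 had 46.4 and 46.7 CPM in Tw2pos, against 1.57 CPM (15 reads) in Pax7pos (4.21 on the log2 scale, SE 0.47, limma adjusted p = 0.000352). Neo1 had 320 and 290 CPM in Tw2pos, against 86.5 in Pax7pos (1.80, SE 0.48, adjusted p = 0.0136, range over alternatives 2.45e-06 to 0.0506). Unc5b had 89.8 and 107 CPM in Tw2pos, against 23.4 in Pax7pos (2.02, SE 0.57, adjusted p = 0.0173, range 7.67e-07 to 0.103). All 3 receptors were higher in each Tw2pos library than in Pax7pos. Epha2 had 37.8 and 30.3 CPM in Tw2pos, against 237 in Pax7pos, and fell by 2.77 on the log2 scale (SE 0.41, adjusted p = 0.00116). Robo1, the Slit receptor, had 38.5 and 42.3 CPM in Tw2pos, against 87.6 in Pax7pos (−1.10, SE 0.37, adjusted p = 0.0349, range over alternatives 0.00139 to 0.267). Robo1 and Ntn4 thus stood higher in Tw2pos than in Tw2neg and lower in Tw2pos than in Pax7pos. Robo4 (23.6 and 12.0 CPM in Tw2pos against 5.22 in Pax7pos) and Ephb3 (44.9 and 47.6 against 29.9) did not pass, at adjusted p = 0.0616 and 0.211. Under quantile normalization, which moved the median of all genes to −0.16, 3 of the 13 were higher and 1 was lower, and the calls of Neo1, Unc5b, Ntng2, Ntn4 and Robo1 ended. The log2 fold change was then 5.54 for Slit3 and 2.59 for Ephb2, which both still passed.

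**Figure D4:**
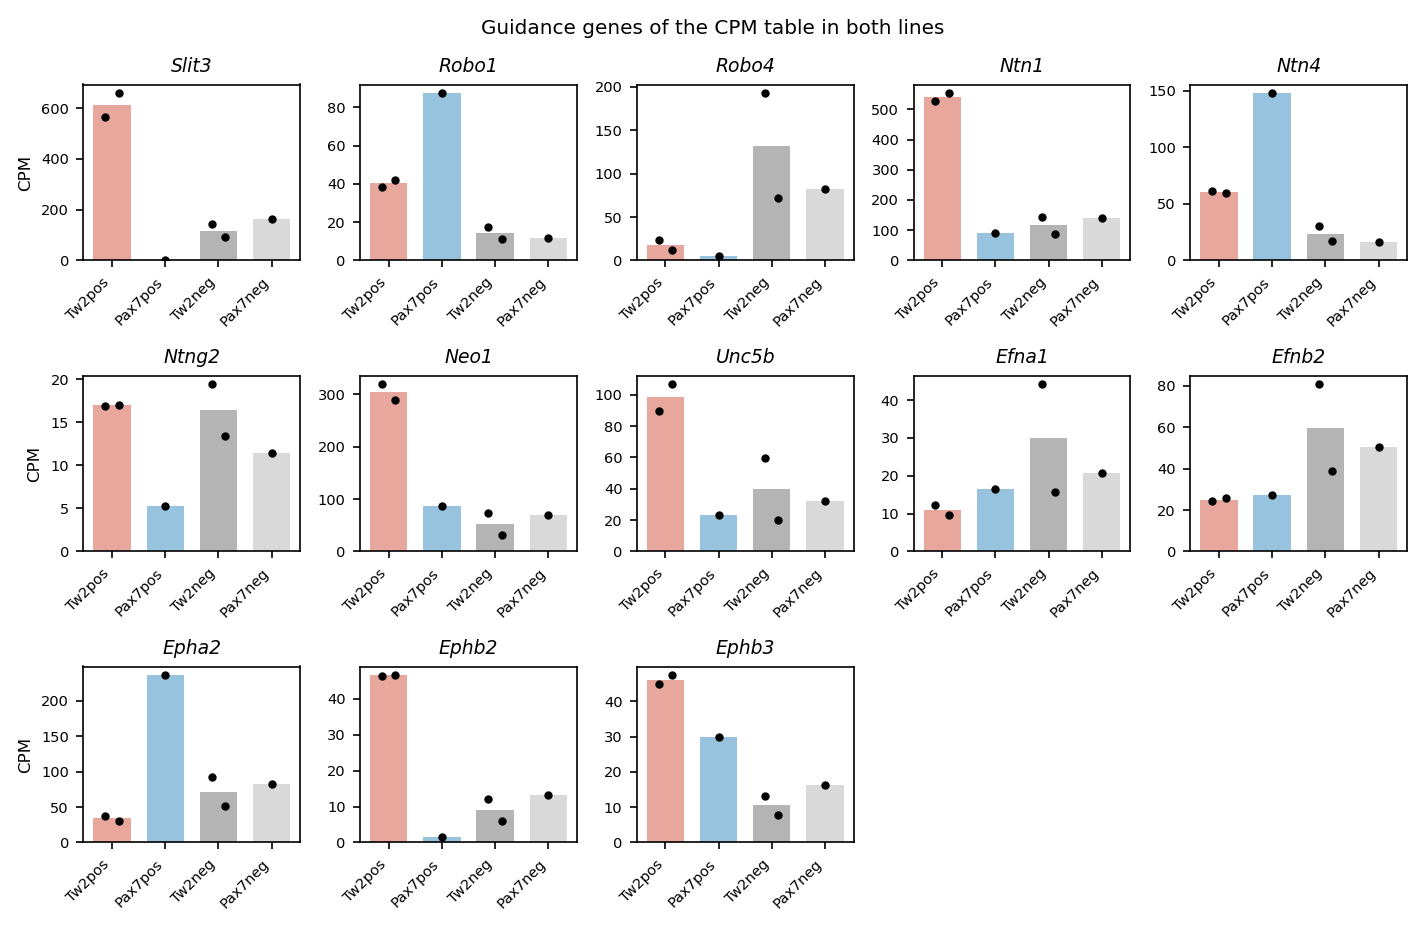
Each panel shows the CPM of 1 of the 13 guidance genes in the CPM table, with a bar for the group mean and a point for each library, in the order Tw2pos, Pax7pos, Tw2neg, Pax7neg. Slit3 and Ephb2 are near 0 in Pax7pos, at 2.92 and 1.57 CPM, while Epha2, Ntn4 and Robo1 have their highest value there.

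The unlabelled cells of the Twist2 line were set against those of the Pax7 line as the background of that comparison. None of the 13 guidance genes passed between Tw2neg and Pax7neg (limma), 0 had an unadjusted p under 0.05, and 0.23% of all genes passed, 0.146% as higher and 0.0835% as lower in Tw2neg. Their log2 fold changes ran from −0.62 (Ephb3, 13.3 and 7.86 CPM in Tw2neg against 16.2 in Pax7neg) to 0.51 (Robo4, 193 and 71.6 CPM against 82.4). Slit3 had 143 and 91.7 CPM in Tw2neg against 164 in Pax7neg, and Ntn1 had 145 and 88.5 CPM against 140. The Tw2neg libraries lay on both sides of the Pax7neg value for Robo4 and Ntn1 and below it for Slit3 and Ephb3. Without Tw2neg replicate 1 the median log2 fold change over the 13 was −0.65, against −0.11 over all genes. Without Tw2neg replicate 2 it was 0.55, against −0.06 over all genes. Each of these fits sets 1 Tw2neg library against 1 Pax7neg library, with the spread taken from the Tw2pos pair alone. The values thus describe single libraries and are no replicated test of the unlabelled cells. edgeR and DESeq2 were not run here, since whole reads were not recovered for Pax7neg.

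Within the Pax7 line, labelled and unlabelled cells have 1 library each, so the differences have no replicate check. By the log2 difference of CPM plus 10, 3 of 13 genes were at least 2-fold higher in Pax7pos than in Pax7neg and 3 were at least 2-fold lower, against 18.3% higher and 33.0% lower of all genes. Higher were Ntn4 (148 CPM in Pax7pos, 16.6 in Pax7neg), Robo1 (87.6 and 11.7) and Epha2 (237 and 82.4). Lower were Slit3 (2.92 and 164), Robo4 (5.22 and 82.4) and Ephb2 (1.57 and 13.3). The fibro-adipogenic marker sum was 3700 CPM in Pax7pos and 26532 in Pax7neg, of which Col3a1 made up 3225 and 15541. The endothelial sum was 168 and 1413. The part of these cell types in the differences was not tested. Robo4 was lower and Robo1 and Ntn4 were higher in the labelled cells of both lines, whereas Slit3 and Ephb2 were higher in Tw2pos than in Tw2neg and lower in Pax7pos than in Pax7neg.

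The difference between the lines in the labelled-over-unlabelled change was tested in the same fit of 6 libraries. It was higher in the Twist2 line for 4 of 13 guidance genes and lower for 2, against 23.4% and 12.8% of all genes. The log2 change of Slit3 was 2.41 in the Twist2 line and −5.39 in the Pax7 line, a difference of 7.80 (SE 0.52, limma adjusted p = 8.96e-05). For Ephb2 the changes were 2.32 and −2.48 (difference 4.80, SE 0.67, adjusted p = 0.00159), for Ntn1 2.24 and −0.61 (2.85, SE 0.53, adjusted p = 0.00578) and for Neo1 2.63 and 0.30 (2.32, SE 0.68, adjusted p = 0.0314, with 2.92 without Tw2neg replicate 1 and 1.72 without replicate 2). These ligands and receptors thus stood higher with the label of the Twist2 line than with that of the Pax7 line. For Epha2 the changes were −1.003 and 1.51 (difference −2.52, SE 0.57, adjusted p = 0.0133), and for Ntn4 1.37 and 3.08 (−1.71, SE 0.55, adjusted p = 0.0433, range over alternatives 0.000884 to 0.176). Robo1 had changes of the same direction in both lines, and its difference between lines did not pass (adjusted p = 0.0796).

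The signalling partners of these genes are effectors, co-receptors and proteases of the same pathways, of which 62 of 63 listed were found. Between Tw2pos and Tw2neg, 14 of 56 tested were higher, 11 were lower and 31 did not pass, beside the 18.7% and 20.0% of all genes, with a median log2 fold change of 0.04. Lrrc4c, the receptor of netrin-G1, had 48.4 and 28.9 normalised counts in Tw2pos, against 12.2 and 5.60 in Tw2neg (log2 fold change 2.04, SE 0.55, limma adjusted p = 0.0306). Flrt2, a ligand of Unc5 receptors, had 1557 and 1898 in Tw2pos, against 512 and 290 in Tw2neg (2.15, SE 0.30, adjusted p = 0.00398). Trim9, a ubiquitin ligase that binds Dcc, had 17.8 and 37.4 in Tw2pos, against 7.32 and 1.599 in Tw2neg (2.53, adjusted p = 0.0412). These 3 genes were named for their large passing rises, so the lack of overlap between their groups adds nothing to the calls. Of all genes tested, 37.1% were higher in Tw2pos without overlap. The falls with the largest size were those of Dscam, a netrin co-receptor (1.27 and 2.41 in Tw2pos, 19.5 and 55.2 in Tw2neg; −3.61), of its relative Dscaml1 (−3.17) and of Mcf2l (265 and 197 in Tw2pos, 1791 and 668 in Tw2neg; −2.26). Of the most abundant partners, Maged1, which binds Unc5 receptors, rose by 1.65, while Ablim1 (−0.30) and Sdcbp (−0.02), a scaffold that binds ephrin-B, did not pass.

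Between Tw2pos and Pax7pos, 12 of 30 partners tested were higher, 7 were lower and 11 did not pass, beside 33.9% higher and 25.7% lower, 59.6% in all, of the genes tested. The Slit and Robo partners had 2 higher and 6 lower of 10, and the netrin partners 5 higher and 4 that did not pass of 9. Of 11 Eph and ephrin partners, 5 were higher, 1 was lower and 5 did not pass. Srgap3, a GTPase regulator that binds Robo receptors, was higher by 4.36 on the log2 scale (SE 0.33, limma adjusted p = 5.51e-05). Ablim1, an actin-binding LIM protein, was higher by 3.85 and Dapk1, a kinase that binds Unc5 receptors, by 3.31. Lower were Gpc1, a heparan sulphate proteoglycan that binds Slit (−2.27), the kinase Pak1 (−1.99) and Arhgap39 (−1.69), a GTPase regulator whose fly relative acts with Robo. Between Tw2neg and Pax7neg 0 of 30 passed in limma, and 2 had an unadjusted p under 0.05.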

How the data were processed

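The deposited normalised count table holds a signal per gene that the authors scaled between libraries, for 24062 genes in the 4 Twist2 libraries, and per the submitters' processing notes TopHat2 2.0.0, DESeq2 1.6.3 and GRCm38/mm10 were used. A table of CPM, also deposited, covers 4939 genes and gives the authors' log2 fold changes, which equal the log2 ratio of CPM plus 1. Reads were counted by a tool, annotation and strand setting not given in the sources used here. Dividing by the value of 1 read gave whole reads for 100% of the values within 0.01, except that Pax7neg was kept as CPM only. Library CPM values of the Twist2 line were computed from these reads. All columns with samples were mapped.

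Twist2 groups were compared in limma 3.58.1 (R 4.3.3, trend, pseudocount 1, genes with a mean of at least 10), and groups of both lines in a fit of 6 libraries on the CPM table (mean of at least 10 CPM). Genes passed at a Benjamini-Hochberg adjusted p under 0.05 over all genes tested. The fits had 2 residual degrees of freedom, with 4.00 and 5.75 prior degrees of freedom. Chi-square per degree of freedom between replicates, where counting error alone gives about 1, was 13.7 in Tw2pos and 69.6 in Tw2neg. edgeR 4.0.16 and DESeq2 1.42.0 on recovered reads, other scalings, filters and pseudocounts, a replicate block and leaving out each Twist2 library were the alternatives. Scripts were tested on simulated data and run in Python 3.11.15 (pandas 2.3.3, numpy 2.4.6, matplotlib 3.10.9, scipy 1.17.1). Exon lengths and overlaps are from GENCODE M21, and promoter windows from RefSeq.

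The genes, lists and tests were chosen with earlier results of these data known. Genes that passed, or with a mean of at least 100 normalised counts, are given with every library; other members by range. Of the partner list the 3 largest passing changes in each direction and the 3 highest means are named, and of each marker list up to 3. Some sequences are not reported here.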

Additional observations from a re-analysis of the deposited data

Results flagged for a closer look

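The labelled-over-unlabelled change of 6 guidance genes differed between the Twist2 line and the Pax7 line by the interaction contrast of the 6-library fit. The Pax7 line has 1 library per group, taken to vary as much as a Twist2 library. The difference on the log2 scale was 7.80 for Slit3 (SE 0.52), 4.80 for Ephb2 (SE 0.67), 2.85 for Ntn1 (SE 0.53), 2.32 for Neo1 (SE 0.68), −2.52 for Epha2 (SE 0.57) and −1.71 for Ntn4 (SE 0.55). Slit3, Ephb2 and Ntn1 passed in every alternative run, Neo1 and Epha2 in 9 of 10 each and Ntn4 in 5 of 10. The direction of the changes in the 2 lines was opposite for Slit3, Ephb2, Ntn1 and Epha2, and the same for Neo1 and Ntn4.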

How the results depend on the processing

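Between Tw2pos and Tw2neg the number of guidance genes called higher was 13, and 8 in the 6-library fit, which holds fewer of them. The number called lower was 4, and 1 with no filter on level, 1 under quantile normalization, 2 without the variance trend, 7 under library total scaling and 7 with the replicate block. Leaving out 1 library gave 8 to 17 higher and 1 to 7 lower. Library total scaling moved the median of all genes to −0.49, with 1607 genes higher and 5257 lower, and quantile normalization to 0.10 (3213 and 2339), against −0.04 (2645 and 2825). Ephb4 reversed under quantile normalization (0.055), and Ntng2 (−0.39) and Ephb6 (−0.25) under library total scaling. Without 1 library in turn Ephb4 ran from −0.70 to 0.68, Ntng2 from −0.21 to 0.32 and Ephb6 from −0.12 to 0.51. The replicate numbers are not stated to mark a shared animal or batch, and the deviations of same-numbered libraries correlated at r = 0.26 over 14155 genes, which are not independent replicates. With the replicate block 15 guidance genes were higher and 7 lower, and 6627 genes passed against 5470.

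Between Tw2pos and Pax7pos quantile normalization gave 3 guidance genes higher and 1 lower, with a median over all genes of −0.16 against 0.41 and a split of 852 higher and 995 lower against 1624 and 1229. Leaving out 1 library gave 1 to 3 lower (1 without either Tw2pos library), and Efnb2 reversed with the replicate block (0.12). Between Tw2neg and Pax7neg leaving out 1 library gave 0 to 3 higher and 0 to 4 lower, where fits without a Tw2neg library compare 1 library with 1. The log2 fold changes there ran from −0.046 to 0.55 for Robo1, −0.20 to 1.22 for Robo4, −0.65 to 0.056 for Ntn1, −1.12 to 0.083 for Neo1, −0.66 to 0.88 for Unc5b, −0.38 to 1.06 for Efna1, −0.37 to 0.67 for Efnb2 and −0.67 to 0.16 for Epha2, which was 0.030 with the replicate block. For the difference between the lines, 1 gene was lower at a mean of at least 50 CPM, 0 under quantile normalization and 1 without the variance trend, and leaving out 1 library gave 4 to 8 higher (8 without Tw2neg replicate 1) and 1 to 5 lower (5 without Tw2neg replicate 2, 1 without either Tw2pos library). Robo4 (−0.33) and Ntng2 (−0.48) reversed there under quantile normalization, and Efnb2 ran from −0.80 to 0.25 without 1 library.

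Of the partners, 19 were lower in Tw2pos than in Tw2neg under library total scaling and 7 without the variance trend, and leaving out 1 library gave 5 to 23 higher (23 without Tw2neg replicate 1, 5 without Tw2pos replicate 2) and 4 to 15 lower (4 without Tw2pos replicate 2). Against Pax7pos, 4 were higher and 3 lower at a mean of at least 50 CPM, 4 were higher under quantile normalization, and leaving out 1 library gave 4 to 9 lower. Between the unlabelled cells 3 were higher with the replicate block, and leaving out 1 library gave 1 to 7 higher and 0 to 3 lower. Filters change which genes are fitted and left-out libraries which samples; the cause of the other moves, those under scalings included, was not tested. edgeR and DESeq2 were not run for the unlabelled cells or the difference between the lines, and for Tw2pos against Pax7pos they used 5 libraries. The minimum mean of 10 normalised counts left 8 of the 41 genes untested.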
